A study of Caenorhabditis elegans with 2 samples.

Results

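The intestine genes described here are 37 protein-coding genes of Caenorhabditis elegans that are known for work in the gut, out of 19973 nuclear protein-coding genes in the annotation. They were chosen by name, as genes for yolk proteins, gut transcription factors, digestive proteases, antimicrobial proteins, metal handling, transport and lipid metabolism. All 37 matched the annotation and all count, with or without a peak. The binding data come from chromatin immunoprecipitation followed by sequencing (ChIP-seq) with an antibody against GFP in whole young adult worms of mixed sex. The worms were of strain OP646, genotype unc-119(tm4063) III; wgIs646, and carried MEL-28 with a GFP-FLAG tag at its C-terminus from a transgene, so both replicates represent 1 transgenic line. They were collected 64 h after synchronization as starved L1 larvae. The 2 biological replicates form a single group, and the counts below are therefore descriptions with no test between groups.

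The intestine is the main digestive, storage and secretory organ of the worm, and in the adult hermaphrodite it makes the yolk proteins that are taken up by oocytes. Its genes are driven by GATA factors, chiefly ELT-2 and its partner ELT-7, which bind the core sequence TGATAA. MEL-28 is the worm relative of ELYS, a nucleoporin that contacts chromatin and seeds the assembly of nuclear pores. In whole animals, the signal of intestinal nuclei is mixed with that of all other tissues, and the number of intestinal nuclei that contribute and the signal per nucleus cannot be told apart. A peak is no measure of expression, so the labelled tissue of the genes was not checked against these data.

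For each gene, the strongest peak summit was taken in a promoter window that runs from 1000 bp before the gene's 5' end to 500 bp after it. A summit is the highest point of a peak. The signal is the depositors' value for a peak, on a scale that is not given and that differs between lists, so values are set side by side but are compared only within a list. The reproducible list held 389 peaks, of which 369 were nuclear, with nuclear signal from 92.7 upwards. The relaxed lists, which by their label hold background as well as peaks, held 17025 peaks for both replicates pooled, 23790 for replicate 1 and 19598 for replicate 2. Read depth is unknown, so no interval for counting error is given.

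None of the 37 intestine genes (0) had a summit of the reproducible list in its window, against 244 of all protein-coding genes (1.22%). In the pooled relaxed list 15 of 37 had one (40.5%), against 28.2% of all protein-coding genes. In replicate 1 it was 17 of 37 (45.9%), against 37.1% of all genes. In replicate 2 it was 12 of 37 (32.4%), against 30.5%. The 15 pooled signals ran from 29.4 to 88.6 with a median of 40.9, beside a median of 40.6 over the 5627 genes with a pooled summit. The median intestine gene with a pooled summit stood at percentile 50.8 of those genes. The intestine genes with a summit thus lay in the middle of the weak range of the pooled list, and their share beside all genes was not tested. The deposited −log10 q-values of the 15 pooled summits ran from 0.0189 at lys-2 to 2.05 at asp-1. That of fat-6 was 1.90, and the next highest was 0.880, at mtl-1.

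**Figure D1:**
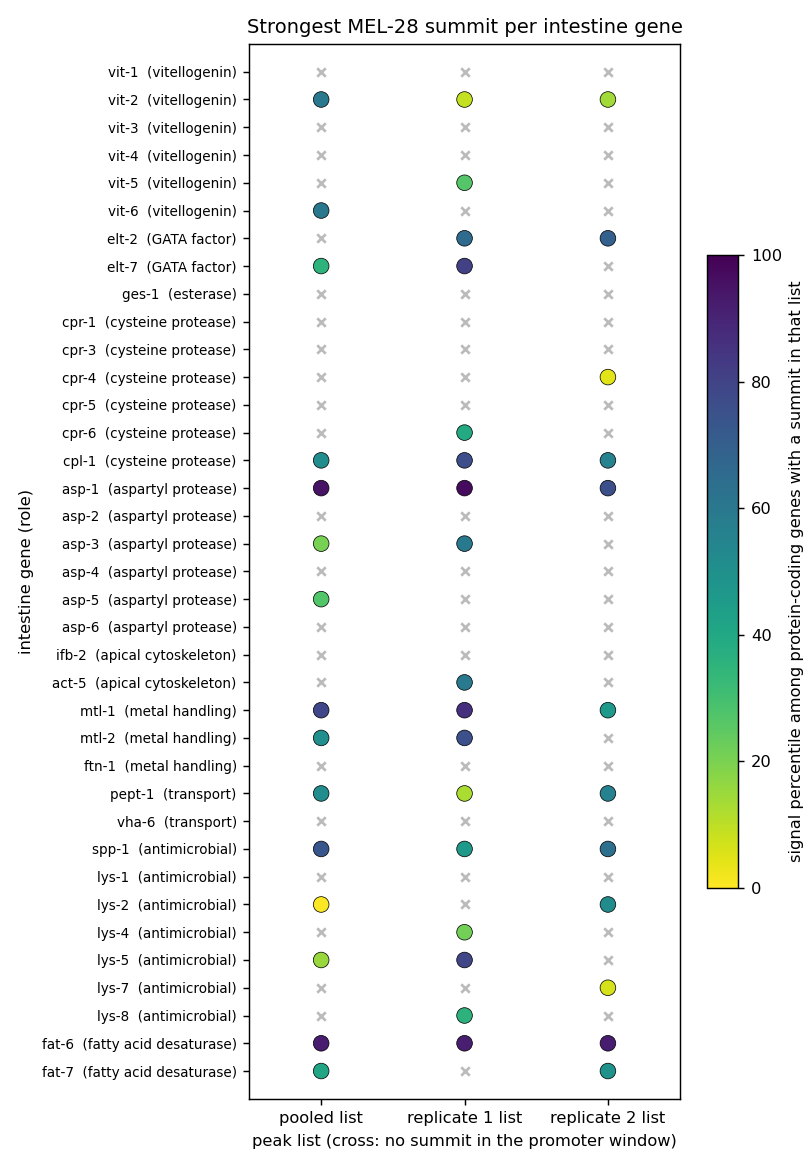
The strongest summit of each of the 37 intestine genes (rows, with role) in the pooled, replicate 1 and replicate 2 lists (columns). The colour gives the percentile of its signal among protein-coding genes with a summit in that list, and a cross means no summit in the window. fat-6 lies between percentile 91.5 and 91.9 in all 3 columns, asp-1 reaches 96.9 in replicate 1 and 75.9 in replicate 2, and 14 rows hold crosses only.

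Of the 37 genes, 23 had a summit in at least 1 relaxed list and 14 had none. The 14 were vit-1, vit-3, vit-4, ges-1, cpr-1, cpr-3, cpr-5, asp-2, asp-4, asp-6, ifb-2, lys-1, ftn-1 and vha-6. Over all protein-coding genes, 9790 had none (49%). Just outside the window, the nearest pooled summits of lys-1 (34.4), ges-1 (37.2) and ftn-1 (70.2) lay 1098, 1107 and 1140 bp upstream. Just inside it lay that of vit-6, 493 bp downstream, although the vit-6 window also held a weaker pooled summit upstream (30.9). A summit in all 3 relaxed lists was present for 7 intestine genes: vit-2, asp-1, mtl-1, pept-1, cpl-1, spp-1 and fat-6. Over all genes that pattern held for 15.8%.

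The sequence at the 2 strongest pooled summits and at 2 summits with a TGATAA close by shows where on the gene the signal lay, with the single capital marking the summit base and 6 capitals in a run marking TGATAA or its reverse complement TTATCA. All were read from the RefSeq copy of the WBcel235 assembly (ce11), on the strand of the gene, 5′ to 3′. The stretch of asp-1 (chrV:19050602-19050752, minus strand) starts at the annotated 5' end and lies in coding sequence. That of fat-6 (chrIV:11915360-11915510, minus strand) starts 177 bp downstream of the 5' end, with the summit in an intron. That of mtl-1 (chrV:6692133-6692246, minus strand) covers 383 to 270 bp upstream. It stops at an annotated untranslated region on its 5′ side, so 1 of the 2 TGATAA copies within 100 bp of the summit, the nearer at 51 bp, is not shown. That of elt-7 (chrV:4770406-4770606, plus strand) covers 264 to 64 bp upstream.
asp-1: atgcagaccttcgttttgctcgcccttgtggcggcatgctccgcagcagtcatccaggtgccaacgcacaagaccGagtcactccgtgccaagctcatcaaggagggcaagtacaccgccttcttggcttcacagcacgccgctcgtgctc
fat-6: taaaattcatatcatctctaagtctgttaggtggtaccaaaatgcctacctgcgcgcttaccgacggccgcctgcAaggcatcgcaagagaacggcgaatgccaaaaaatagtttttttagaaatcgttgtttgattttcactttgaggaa
mtl-1: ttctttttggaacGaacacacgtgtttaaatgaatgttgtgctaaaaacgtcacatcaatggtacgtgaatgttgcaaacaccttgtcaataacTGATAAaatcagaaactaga
elt-7: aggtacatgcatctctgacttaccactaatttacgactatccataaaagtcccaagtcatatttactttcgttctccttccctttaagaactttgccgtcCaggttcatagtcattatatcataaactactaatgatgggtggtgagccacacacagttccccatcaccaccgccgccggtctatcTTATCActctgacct

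asp-1, which encodes a cathepsin D-like aspartyl protease, had the highest pooled signal of the 37 genes. The signal at asp-1 was 88.6 in the pooled list, 48.8 in replicate 1 and 33.7 in replicate 2. The pooled peak (chromosome V, 19050462 to 19050891) ranked 430 among nuclear peaks. It stood at percentile 95 of genes with a pooled summit, at 96.9 in replicate 1 and at 75.9 in replicate 2. The pooled summit lay 75 bp and the replicate 1 summit 2 bp downstream of the 5' end, in coding sequence, and the replicate summits lay 113 bp apart. The 201 bp around the pooled summit had 57.7% GC, the highest of the 15 intestine summits, whose median of 37.8% equalled that over all genes.

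fat-6 encodes a stearoyl-CoA desaturase, which makes monounsaturated fatty acids. Its signal was 76.2 in the pooled list, 35.1 in replicate 1 and 45.2 in replicate 2. It stood at percentile 91.5 in replicate 1 and 91.8 in replicate 2. The summits lay in an intron, 252 bp, 320 bp and 253 bp downstream of the 5' end in the pooled, replicate 1 and replicate 2 lists. The 5' end of another gene, ZK822.9, lay 512 bp from the pooled summit, so the window of fat-6 is shared. Its paralog fat-7, with the same enzyme activity, had a pooled signal of 38.1 with the summit 167 bp upstream, and 25.9 in replicate 2. fat-7 had no summit in replicate 1.

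**Figure D2:**
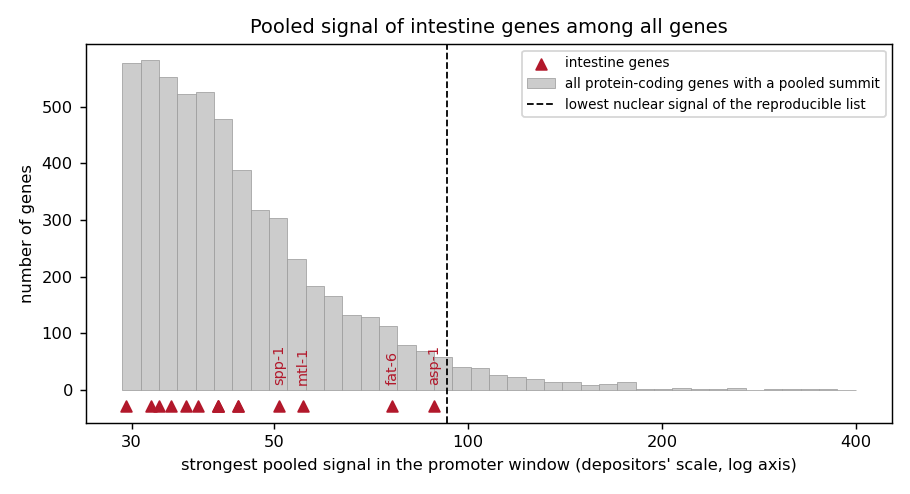
Number of protein-coding genes (vertical axis) by strongest pooled signal in the promoter window (log axis, depositors' scale), with the 15 intestine genes as triangles under the histogram and the lowest nuclear signal of the reproducible list, 92.7, as a dashed line. All 15 triangles lie left of the line, with asp-1 at 88.6 nearest to it.

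The metallothionein genes mtl-1 and mtl-2 encode small metal-binding proteins. mtl-1 had signals of 55.3 in the pooled list, 30.2 in replicate 1 and 25.3 in replicate 2, with summits 370, 357 and 395 bp upstream of the 5' end. The replicate 2 summit lay in the 3' untranslated region of another gene, W02F12.8. The replicate summits of mtl-1 lay 38 bp apart, the closest of the 8 genes with a summit in both replicates. In mtl-2 the pooled signal was 40.8 and the replicate 1 signal 25.1, with no summit in replicate 2. The pooled summit of mtl-2 lay 118 bp downstream of its 5' end and 211 bp from that of its neighbour T08G5.1. ftn-1, a ferritin gene, had no summit in its window. Its nearest pooled summit, looked up after the values had been seen, had signal 70.2 and lay 1140 bp upstream of the 5' end.

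The yolk protein genes vit-1 to vit-6 encode vitellogenins. In their promoter windows 2 of 6 had a pooled summit, vit-2 and vit-6, both with signal 43.9. The vit-2 summit lay 751 bp upstream and the vit-6 summit 493 bp downstream of the 5' end, close to the edge of the window. The vit-6 window also held a weaker pooled summit, upstream of the 5' end, with signal 30.9. vit-2 had signals of 14.3 in replicate 1, at 45 bp downstream, and 20.6 in replicate 2, at 808 bp upstream, so the replicate summits lay 853 bp apart. vit-5 had a summit in replicate 1 alone, with signal 16.2. vit-6 had no replicate summit inside the window, and the nearest in replicate 2 lay at 509 bp with signal 31.2.

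The vitellogenin genes differed in how much of their sequence occurs once in the genome, which bears on where reads can be placed. Of all 31-base words in the gene body, 19.5% of vit-3, 16.1% of vit-4 and 38.6% of vit-5 occurred once in the nuclear genome, against 76.7% of vit-1 and 76.0% of vit-2. In the promoter windows the shares were 68.8% for vit-3, 67.9% for vit-4 and 91.6% for vit-5, and at least 95.2% in the other 34 intestine genes. The absence of summits at vit-3 and vit-4, and of pooled summits at vit-5, is uncertain for that reason. Whether their sequence accounts for it was not tested.

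Across the gene bodies, the yolk genes with a pooled summit carried stronger peaks inside the transcribed part than at the 5' end. vit-6 had 4 pooled summits in its body, at 493, 1649, 3449 and 4782 bp from the 5' end, with signals of 43.9, 69.0, 62.2 and 53.7. vit-2 had 3, at 1049, 1260 and 2557 bp, with signals of 36.4, 32.4 and 74.9. All 7 lay in coding sequence. At the strongest vit-2 body summit the replicate signals were 29.8 in replicate 1 and 41.6 in replicate 2, at 2535 and 2576 bp. At the strongest vit-6 body summit they were 34.0 in replicate 1 and 33.0 in replicate 2, at 1607 and 1548 bp. vit-1, vit-3, vit-4 and vit-5 had 0 pooled summits in the body. In replicate 1, vit-1 had body summits of 16.4 at 706 bp and 13.9 at 3728 bp, and vit-5 had one of 16.2 at 221 bp. None of these genes had a body summit in replicate 2. Over the 37 intestine genes there were 24 pooled body summits, or 2.70 per 10 kb, against 1.70 per 10 kb over all protein-coding genes. The 6 vitellogenin genes had 7 of these, or 2.24 per 10 kb. In replicate 1 the rate was 4.05 per 10 kb for the intestine genes, against 2.39 for all genes, and in replicate 2 it was 2.81, against 1.99. The body shares up to 500 bp with the promoter window, so the 8 pooled window summits downstream of the 5' end are among the 24. The intestine genes were also shorter, with a median length of 1746 bp against 2027 bp over all genes. Whether length bears on the rates was not tested. Besides vit-6 and vit-2, fat-6 held 3 of the 24, and cpl-1 and cpr-1 held 2 each. Counted by gene, 15 of 37 had a pooled body summit (40.5%), against 32.1% of all genes. In replicate 1 it was 20 of 37, against 41.7% of all genes, and in replicate 2 it was 15 of 37, against 36.7%. No intestine gene (0) had a reproducible body summit, against 0.701% of all genes.

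Past the 3' ends of vit-2 and cpl-1 lay the only reproducible summits found between 1000 bp before the 5' end and 500 bp past the 3' end of an intestine gene. These positions were looked at after the values had been seen. Within 500 bp of the 3' end, 2 of 37 genes had a reproducible summit, against 0.751% of all protein-coding genes. The vit-2 one (chromosome X, 5106165 to 5106594, pooled signal 102) lay 211 bp past the 3' end, inside an intron of the neighbouring gene C42D8.9. Its signals were 37.6 in replicate 1 and 65.5 in replicate 2. The cpl-1 one (chromosome V, 16592136 to 16592565, pooled signal 96.3) lay 221 bp past the 3' end, with 49.6 in replicate 1 and 59.0 in replicate 2. It also lay 309 bp from the 5' end of srh-269 and within 500 bp of the tRNA gene WBGene00014499 and the ncRNA gene T03E6.13. With any relaxed summit, 9 of 37 genes had one at the 3' end in the pooled list (24.3%), against 23.1% of all genes. In replicate 1 it was 15 of 37, against 29.2% of all genes, and in replicate 2 it was 10 of 37, against 24.7%. In short genes this stretch reaches into the promoter window. The pooled 3' summits of spp-1 and mtl-2 are the same as their window summits, at 127 and 118 bp from the 5' end. Over the promoter window, the gene body and the 500 bp past the 3' end together, 20 of 37 had a pooled summit, against 49.2% of all genes, and 2 a reproducible one, against 2.24%. The same stretch held a replicate 1 summit in 24 of 37, against 61.2%, and a replicate 2 summit in 20 of 37, against 54%.

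**Figure D3:**
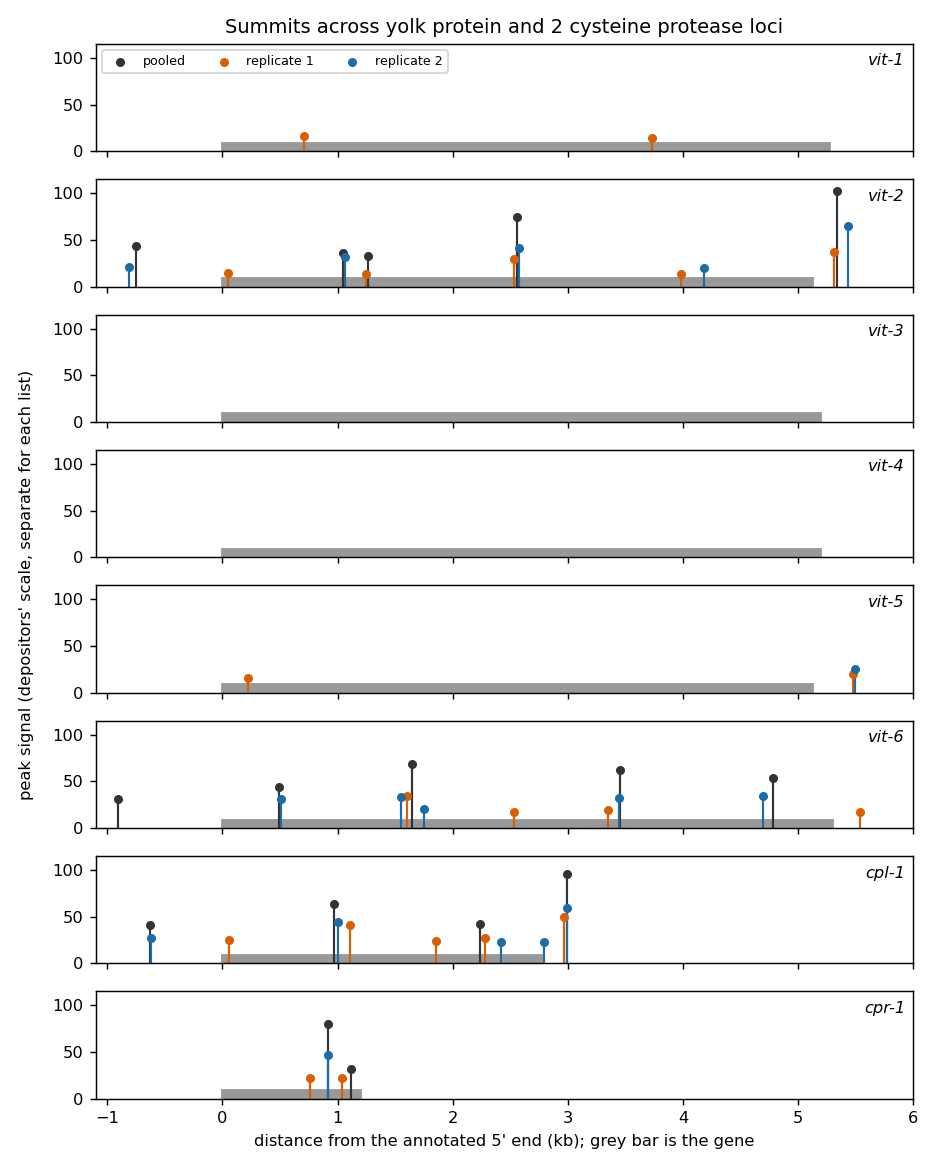
Summits from 1000 bp upstream to 500 bp past the 3' end of the 6 vitellogenin genes, cpl-1 and cpr-1. The horizontal axis is the distance from the 5' end in kb, the height is the peak signal on the depositors' scale, which is separate for each list, and the grey bar is the gene. In vit-2 and cpl-1 the tallest pooled summit lies past the 3' end, at 102 and 96.3, and vit-3 and vit-4 hold no summit.

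Cysteine proteases of the cathepsin family digest food and yolk in lysosome-like compartments. cpl-1, a cathepsin L gene, was the only one of its 6 listed members with a pooled summit in the window. Its signals were 40.9 in the pooled list, at 633 bp upstream, 25.3 in replicate 1, at 55 bp downstream, and 27.3 in replicate 2, at 620 bp upstream. The replicate summits thus lay 675 bp apart. Of the cathepsin B-like genes, cpr-4 had a summit of 19.4 in replicate 2 alone and cpr-6 one of 17.7 in replicate 1 alone. cpr-1, cpr-3 and cpr-5 had none. cpr-1, a gut cysteine protease, had a pooled summit of signal 80 in its coding sequence at 920 bp from the 5' end, outside the window, with 47.0 in replicate 2 at 915 bp. Its strongest replicate 1 body summit was 22.1, at 758 bp. The nearest reproducible summit of cpr-1, 4525 bp downstream of its 5' end, lay 353 bp from the 5' end of snr-4. That summit was also in an exon of the ncRNA gene C52E4.14 and within 500 bp of the snRNA gene T11F9.15.

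Among the other aspartyl protease genes, asp-3 had a pooled summit of 33.1 at 40 bp upstream and asp-5 one of 34.5 at 678 bp upstream. asp-3 had 20.9 in replicate 1 and no summit in replicate 2. asp-5 had no summit in either replicate list, and its pooled summit lay in an intron of asp-12. asp-2, asp-4 and asp-6 had none.

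Of the antimicrobial genes, 6 of 7 had a summit in at least 1 relaxed list, as did both GATA factor genes and both desaturase genes. Over the 37 genes the share was 62.2%, against 51.0% of all protein-coding genes. spp-1 encodes a saposin-like pore-forming protein. Its signals were 50.9 in the pooled list, 18.6 in replicate 1 and 29.2 in replicate 2, at 127 bp downstream, 41 bp upstream and 167 bp downstream. Among the lysozyme genes, lys-2 had 29.4 in the pooled list and 26.4 in replicate 2, both at 84 bp downstream, and lys-5 had 32.1 in the pooled list and 26.4 in replicate 1. lys-4 (15.5) and lys-8 (17.2) had a summit in replicate 1 alone, and lys-7 (19.6) in replicate 2 alone. The lys-7 summit lay 848 bp upstream, in coding sequence of another gene, srbc-33. lys-2 stood at percentile 0.764 in the pooled list and 51.8 in replicate 2, and lys-5 at 15.6 in the pooled list and 79.1 in replicate 1. Those with a summit in a single list stood at percentile 21.2 (lys-4), 35.6 (lys-8) and 6.30 (lys-7). In lys-5, 65.0% of the words in the gene body occurred once.

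The GATA factor genes each lacked a summit in 1 of the relaxed lists. elt-2 had 22.2 in replicate 1 at 488 bp upstream and 30.8 in replicate 2 at 61 bp downstream, 549 bp apart, and no pooled summit in the window. It stood at percentile 65.5 in replicate 1 and 69.6 in replicate 2. A pooled summit of 35.5 lay 891 bp downstream of its 5' end, in coding sequence, with 29.4 in replicate 2 at 890 bp. elt-7 had 36.5 in the pooled list and 27.1 in replicate 1, at 164 and 212 bp upstream, and no summit in replicate 2. It stood at percentile 35.3 in the pooled list and 80.8 in replicate 1. Of the transport genes, pept-1, the peptide transporter of the gut lumen, had 40.9 in the pooled list, 14.7 in replicate 1 and 27.2 in replicate 2, with the replicate summits 42 bp apart in an intron. vha-6, a subunit of the apical proton pump, had none. Of the structural genes, act-5, the actin of the microvilli, had 20.8 in replicate 1 alone, and ifb-2, an intermediate filament gene of the terminal web, had none. The esterase gene ges-1, a widely used gut marker, had none in its window.

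The replicates overlapped for the intestine genes about as they did for all genes. A summit in both replicate lists was present for 8 of 37 (21.6%), against 18.1% of all protein-coding genes. Those 8 were 47.1% of the 17 genes called in replicate 1 and 66.7% of the 12 called in replicate 2. Over all genes the shares were 48.7% and 59.3%. In 5 of the 8 (asp-1, mtl-1, pept-1, spp-1 and fat-6) the replicate summits lay within 250 bp of each other, which was 13.5% of the 37 genes, against 10.7% of all genes. The median gap was 160.5 bp, against 172 bp over all genes. Across the 8 genes, Spearman's rho between the replicate signals was 0.667, and over all 3608 genes with both it was 0.405. Neighbouring genes can share a peak, and both lists used a shared control, so these coefficients are descriptions.

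**Figure D4:**
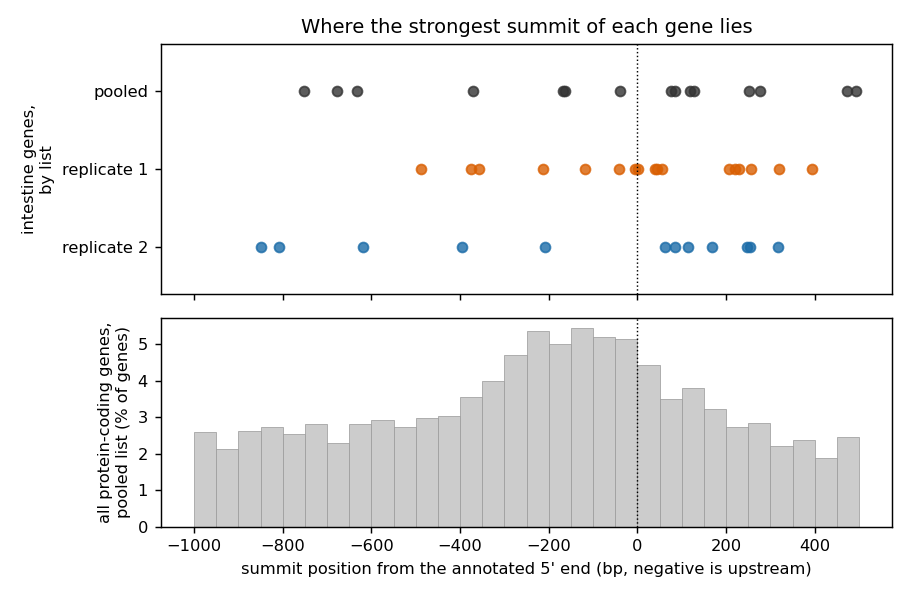
Position of the strongest summit from the annotated 5' end (horizontal axis, bp) for the intestine genes in each relaxed list (upper panel, 1 point per gene) and for all protein-coding genes in the pooled list (lower panel, percent of genes per 50 bp). Of the 15 pooled points, 8 lie downstream, whereas 70.6% of all genes have theirs upstream.

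Summits of the intestine genes lay less to the upstream side than those of other genes, in description. Of the 15 pooled summits 7 lay upstream of the 5' end (46.7%), against 70.6% of all genes with a pooled summit. The median position was 75 bp downstream, against 198 bp upstream over all genes. The shares upstream were 41.2% against 69.9% in replicate 1, and 41.7% against 68.5% in replicate 2. These differences were not tested. The 15 pooled summits lay outside annotated genes in 6 cases, in coding exons in 3, in introns in 5 and in an untranslated region in 1. The member's own 5' end was the nearest coding 5' end for all 15. Neither of these counts was made over all genes, so they show no difference from other genes. No pooled summit of the 15 lay within 500 bp of a tRNA, snoRNA or snRNA gene (0 of 15), against 3.66% over all genes with a pooled summit. An ncRNA gene lay that near for 2 of 15, C42D8.16 at vit-2 and K07H8.16 at vit-6, against 10.9%. Of the 37 windows, 5 held the 5' end of another coding gene, and 21.6% of all windows did.

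From 250 bp upstream to 50 bp downstream of the 5' end, TGATAA on either strand was present in 32 of 37 intestine genes (86.5%), against 30.2% of all protein-coding promoters of the same length. At least 2 copies were present in 48.6%, against 7.73%. The median GC content was 36.3%, against 34.3%. Among the 15 genes with a pooled summit in the 1500 bp window 12 had the motif in the promoter, and among the 22 without one 20 did. Of the 8 genes with a summit of any relaxed list inside the 300 bp promoter itself 6 had it, and of the other 29 genes 26 did. Within 100 bp of the pooled summit, 5 of the 15 had it (33.3%), against 17.4% of all genes with a pooled summit. These 5 were elt-7, asp-3, asp-5, mtl-1 and spp-1. The median distance from the pooled summit to the nearest TGATAA was 229 bp, against 354 bp over all genes. The motif also lay in the promoters of 62.1% of the other gut lumen, transport and granule genes, 51.6% of paralogs of the intestine genes, 35.7% of intestine regulators, 30.8% of muscle structure genes and 29.5% of cytosolic ribosomal protein genes. No test was made of these shares.

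The 250 bp upstream of vit-2, cpr-3 and lys-8 are shown. They hold 2, 4 and 4 copies of TGATAA or TTATCA (capitals), and few or no summits were listed in them. The vit-2 stretch is chrX:5100792-5101041 on the plus strand, that of cpr-3 is chrV:15298701-15298950 on the minus strand and that of lys-8 is chrII:5585928-5586177 on the plus strand. Inside these stretches, the pooled and replicate lists held no summit at vit-2 or cpr-3, and lys-8 had 1 of 17.2 in replicate 1. The replicate 1 peak of vit-2 (14.3) reached into its stretch, with the summit 45 bp downstream of the 5' end. vit-2 and lys-8 are thus among the 8 genes with a summit inside the 300 bp promoter.
vit-2: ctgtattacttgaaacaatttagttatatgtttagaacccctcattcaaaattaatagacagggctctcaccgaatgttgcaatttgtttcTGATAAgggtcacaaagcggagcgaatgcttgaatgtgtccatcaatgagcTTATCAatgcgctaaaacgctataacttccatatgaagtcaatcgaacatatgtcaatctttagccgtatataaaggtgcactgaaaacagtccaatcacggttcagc
cpr-3: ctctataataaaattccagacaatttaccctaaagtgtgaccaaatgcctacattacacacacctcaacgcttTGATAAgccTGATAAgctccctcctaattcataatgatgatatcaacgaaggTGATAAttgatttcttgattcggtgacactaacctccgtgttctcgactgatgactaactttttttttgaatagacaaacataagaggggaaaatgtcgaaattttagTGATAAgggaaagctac
lys-8: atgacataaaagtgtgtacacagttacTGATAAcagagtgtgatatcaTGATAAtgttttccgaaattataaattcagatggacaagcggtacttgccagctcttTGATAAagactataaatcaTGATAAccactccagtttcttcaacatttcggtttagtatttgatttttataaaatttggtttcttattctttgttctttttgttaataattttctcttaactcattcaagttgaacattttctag

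**Figure D5:**
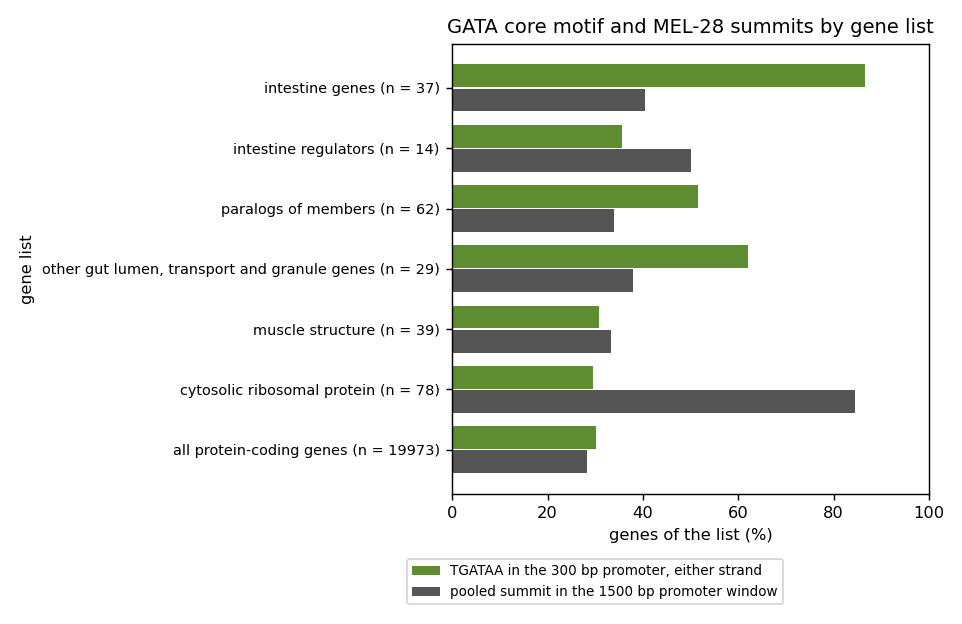
Percent of genes in each list with TGATAA on either strand of the 300 bp promoter (green) and with a pooled summit in the 1500 bp window (grey). The intestine genes reach 86.5% and 40.5%, the ribosomal protein genes 29.5% and 84.6%, and all protein-coding genes 30.2% and 28.2%.

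Of the other gut gene lists, the regulators had a higher pooled share than the 40.5% of the intestine genes, and the paralogs and the lumen, transport and granule genes had a lower one. Of 14 regulators of intestinal genes, 7 had a pooled summit and 1 a reproducible one. That one was lin-35, the worm retinoblastoma gene, with signal 113, followed by nhr-49 (66.5) and skn-1 (61.4). Of 62 matched paralogs of the intestine genes, 21 had a pooled summit (33.9%) and 0 a reproducible one, led by cpr-9 (85.3), vha-8 (66.1) and vha-13 (62.2). Of 29 other gut lumen, transport and granule genes, 11 had a pooled summit (37.9%), led by hrg-1 (55.2), glo-4 (51.5) and ifo-1 (49.9). Muscle structure genes, the markers of another tissue of the whole animal, had 13 of 39 (33.3%) and 0 reproducible summits, led by unc-60 (84.0). Cytosolic ribosomal protein genes had 66 of 78 (84.6%), 12 of them with a reproducible summit, led by rpl-15 (322). The order of these pooled shares did not hold in every peak list. In replicate 2 the muscle structure genes (43.6%) and the paralogs (37.1%) had a higher share than the intestine genes (32.4%). In replicate 1 the intestine genes (45.9%) were above both (43.6% and 38.7%). A summit in both replicates was present for 25.6% of the muscle structure genes, against 21.6% of the intestine genes. The difference between these gene lists and the intestine genes was not tested.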

How the data were processed

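The authors deposited peak lists in narrowPeak layout. The manifests that came with them trace a replicate's relaxed list to that replicate's alignments plus 1 common control. The pooled list used the alignments of the 2 replicates with this control. Those 3 lists together gave the reproducible list, by IDR (irreproducible discovery rate). Which aligner, peak caller and threshold were used is not given in the sources used here. In the lists, the signal of each peak and its −log10 q-value are the values the authors deposited, and only the signal was used for ranking. The 4 ce11 lists were used and the ce10 lists and the control were not used here.

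Gene positions came from Ensembl release 115 (WBcel235, the same assembly as ce11), and 0 nuclear peaks ended beyond a reference chromosome. Sequence came from the RefSeq copy of that assembly. No promoter table was used: the 300 bp promoters were cut at the Ensembl 5' ends. The strongest summit from 1000 bp upstream to 500 bp downstream of the 5' end was taken per gene. Percentiles are among protein-coding genes with a summit in the same list. The assignment was tested on simulated data, where 200 of 200 planted summits were recovered and 0 calls were made at genes with a summit just outside the window. A TGATAA match was exact on either strand, and a unique word is a stretch of 31 bases that occurs once in the nuclear genome on both strands together.

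The members, gene lists and alternatives were chosen with earlier results of these data known, and 2 listed symbols of the comparison lists had no match. All 37 genes are named. Full values are given for those with a summit in both replicates and the 8 highest by pooled signal, and up to 3 genes of each other list. With 1 group of 2 replicates no test was made. Alternatives were other windows, transcript 5' ends, interval overlap, the stronger part of each list, genes with an unshared window, gene bodies, either replicate alone and, added after seeing the data, the 3' flank. Read depth is unknown. Software was Python 3.11.15 with pandas 2.3.3, matplotlib 3.10.9, numpy 2.4.6 and scipy 1.17.1.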

Additional observations from a re-analysis of the deposited data

How the results depend on the processing

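No reproducible summit (0) lay in a window of any size tried, at any transcript 5' end, by interval overlap or inside a gene body. Over all genes the reproducible share was 0.886% with 500 bp upstream to 250 bp downstream and 1.60% with 2000 bp upstream. It was 1.33% at transcript 5' ends, 1.35% by overlap and 1.76% with the gene body added. The 0 of 37 was thus near the share of all genes. With the 500 bp past the 3' end added, a choice made after seeing the data, 2 genes had one (5.41%, against 2.24% of all genes), 20 had a replicate 2 summit (54.1%, against 54%) and 15 a summit in both replicates (40.5%, against 41.4%). With 500 bp upstream to 250 bp downstream, 8 genes had a pooled summit (21.6%, against 18.8% of all genes), 7 a replicate 2 summit (18.9%, against 19.3%, the other way round than in the main window) and 5 both (13.5%, against 9.96%). In replicate 1 that window held a summit in 14 genes (37.8%, against 24.5%). The pooled share was above that of all genes in every setting tried. It was 54.1% with 2000 bp upstream, against 37.3%, and 48.6% by overlap, against 32.4%. With 2000 bp upstream, the replicate 2 share was 40.5%, against 40.8%. The stronger part of the replicate 1 list left 11 genes (29.7%, against 22.1%). The gene body added to the window gave 13 genes with both replicates (35.1%, against 35.6%). Taken alone, the replicate 2 list gave 12 genes and the replicate 1 list 17, beside the pooled 15. These are the deposited replicate lists, with no new pooling or peak calling. Replicate summits lay within 100 bp for 3 genes. The median pooled signal was 39.4 with the narrow window, with 2000 bp upstream and with gene bodies, 40.8 by overlap and 43.9 in the stronger part. The median percentile was 54.9 among genes with an unshared window. No paired analysis was possible because the study has 1 group. Weak summits at the low end of relaxed lists and unknown depth limit what an absent summit shows.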
